A study of Mus musculus with 24 samples.

Results

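The genes described here are the 3 D-type cyclins Ccnd1, Ccnd2 and Ccnd3, the 2 kinases they activate, Cdk4 and Cdk6, and 5 inhibitors of cyclin-dependent kinases (CDKs), Cdkn1b, Cdkn1c, Cdkn2a, Cdkn2b and Cdkn2c. They form a named pathway group, proposed when earlier results of these data were known, and a probe belonged to it when the array's gene name for it was 1 of these symbols or an older synonym of one. All 10 genes were present, with 17 of the 41174 probes that carry 27962 gene names on the array. The cells were mouse embryonic fibroblasts that lack Ku70, a protein of nonhomologous end joining, and every group, controls included, carried this deletion. In the first set of 15 arrays, cells were untreated, were given the oxidant potassium bromate (KBrO3) alone at 20 mM for 1 hr and then fresh medium, or were co-exposed. Co-exposed cells received 150 μM bisphenol A (BPA) for 1 hr, both agents for 1 hr and BPA again until sampling, and treated cells of this set were taken 4 or 24 hr after KBrO3 was added. In the second set of 9 arrays, cells were untreated or had BPA alone at 150 μM, labeled as 4 or 24 hr. By the study's methods cells with BPA alone were exposed for 1 hr longer than these labels say. Each group held 3 arrays, which the study's methods describe as biological replicates. Controls of the first set are labeled 4 hr and those of the second carry no time, so a 24 hr group compared with control differs in both treatment and time in culture, which cannot be told apart.

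D-type cyclins bind Cdk4 or Cdk6 in G1, and the active kinases phosphorylate the retinoblastoma protein Rb1, which releases E2F factors for entry into S phase. The INK4 inhibitors, here p16 (Cdkn2a), p15 (Cdkn2b) and p18 (Cdkn2c), bind Cdk4 and Cdk6 themselves and keep the cyclin away. The CIP/KIP inhibitors p27 (Cdkn1b) and p57 (Cdkn1c) bind cyclin-CDK complexes, those of Cdk2 above all. Cdkn2a also encodes p19ARF, which blocks Mdm2 and so stabilizes p53, and in cultured mouse fibroblasts the products of Cdkn2a and Cdkn2b accumulate with passage. Transcript levels do not measure these proteins, whose amounts are also set by degradation and localization.

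A level is given here as the log2 processed signal of a gene's brightest probe minus the 75th percentile of its array, so 0 stands for that percentile. Levels can be compared between groups of 1 set for 1 probe but not between probes or sets. Between 57.66% and 68.07% of spots lay well above background on arrays of the first set and between 76.41% and 79.42% on those of the second, and the brightest probe of each of the 10 genes was well above background on all 24 arrays. The residual SD of the 10 genes between arrays of a group was 0.0414 to 0.12 in the first set and 0.0983 to 0.46 in the second, so that the second set resolves smaller changes less well. All 8 fibroblast markers examined were measured on every array of the controls, while of the brightest probes of 17 markers of other cell types those of Ptprc, Pecam1 and Myh3 (leukocytes, endothelium, muscle) were well above background on none of the 24 arrays, those of Kdr, Cd68, Sox2 and Tubb3 on all 24 and the others on 3 to 20, with the muscle markers Myod1 and Myog at 19 and 13. On the first set's controls the summed relative signal was 0.865 to 0.882 for neural, 0.148 to 0.191 for leukocyte and 0.032 to 0.0455 for endothelial markers. Over the 4 treated groups these sums were 1.19 to 4.4, 0.299 to 0.672 and 0.0516 to 0.0971, all above the controls, with the first 2 highest at 4 hr after KBrO3 alone. The sum of the 3 muscle markers was 0.038 to 0.0436 on the controls and highest at 4 hr of co-exposure, 0.101 to 0.105, while epithelial sums of controls and treated groups overlapped (0.0547 to 0.118 in all 5 groups). The part of these markers in the results was not tested. The Cdkn2a probe is listed for 1 RefSeq transcript of the gene, and whether it reads p16, p19ARF or both was not tested. The brightest probes of Cdk6 and Cdkn1b were designed to RIKEN cDNA clones and other probes to RefSeq transcripts, and these are compared after the main results. A gene counts as changed, and rose or fell, at an adjusted p below 0.05 (limma, Benjamini-Hochberg over all probes tested), and the stricter thresholds of the study's methods, a Bonferroni p below 0.01 and a fold change beyond 1.5, are given beside it.

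The RefSeq table of promoters (GRCm38.p6, 250 bases before to 50 after a transcript start) held 10 promoters of 7 of the 10 genes. They were searched on both strands for a cyclic AMP response element (TGACGTCA), an E-box (CACGTG) and an E2F site (TTTNNCGC), and no matches overlapped. Shown are the promoters of Cdkn1b, which had the largest fall at 4 hr, of Cdkn2b, which KBrO3 alone and co-exposure moved in opposite directions, and of Cdk4, the kinase with the most matches, each in lower case with matches in capitals. They lie at chr6:134920151-134920450 on the plus strand (Cdkn1b), chr4:89310983-89311282 on the minus strand (Cdkn2b) and chr10:127063285-127063584 on the plus strand (Cdk4), and read 5′ to 3′ as follows.
Cdkn1b: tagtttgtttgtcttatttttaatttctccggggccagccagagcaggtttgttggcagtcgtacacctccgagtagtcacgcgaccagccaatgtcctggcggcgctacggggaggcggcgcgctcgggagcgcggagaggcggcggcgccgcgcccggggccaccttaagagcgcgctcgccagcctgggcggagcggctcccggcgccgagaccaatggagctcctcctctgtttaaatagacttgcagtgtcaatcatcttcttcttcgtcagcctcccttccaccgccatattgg
Cdkn2b: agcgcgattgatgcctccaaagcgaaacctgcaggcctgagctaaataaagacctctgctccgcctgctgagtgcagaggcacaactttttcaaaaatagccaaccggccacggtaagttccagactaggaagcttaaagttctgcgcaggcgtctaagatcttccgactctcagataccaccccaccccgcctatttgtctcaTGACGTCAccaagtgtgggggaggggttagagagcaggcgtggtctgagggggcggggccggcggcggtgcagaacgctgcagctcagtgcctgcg
Cdk4: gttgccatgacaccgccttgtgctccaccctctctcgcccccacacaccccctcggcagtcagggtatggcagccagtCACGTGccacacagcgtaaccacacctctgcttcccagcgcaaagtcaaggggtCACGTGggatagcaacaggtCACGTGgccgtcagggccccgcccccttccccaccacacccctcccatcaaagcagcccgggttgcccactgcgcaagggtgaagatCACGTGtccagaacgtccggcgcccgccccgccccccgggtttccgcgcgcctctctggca

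The Cdkn2b promoter held the response element once, 46 bases before the start, as did 1.79% of all 32851 promoters in the table. The Cdk4 promoter held 4 E-boxes, and 7.15% of promoters held at least 1 and 8 promoters held 4 or more. The Cdkn1b promoter held none of the 3. The E2F letters, in which N stands for any base, matched in the promoter of Cdk6 (TTTTACGC) and in both promoters of Cdkn2a (TTTCCCGC and TTTAGCGC). Such a match was found in 5.17% of all promoters. An E-box was found in the promoter of Cdk6 and in 1 of the 2 promoters of Cdkn2c. Both promoters of Ccnd3 held no match. These matches describe letters only, and none was tested for binding.

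**Figure D1:**
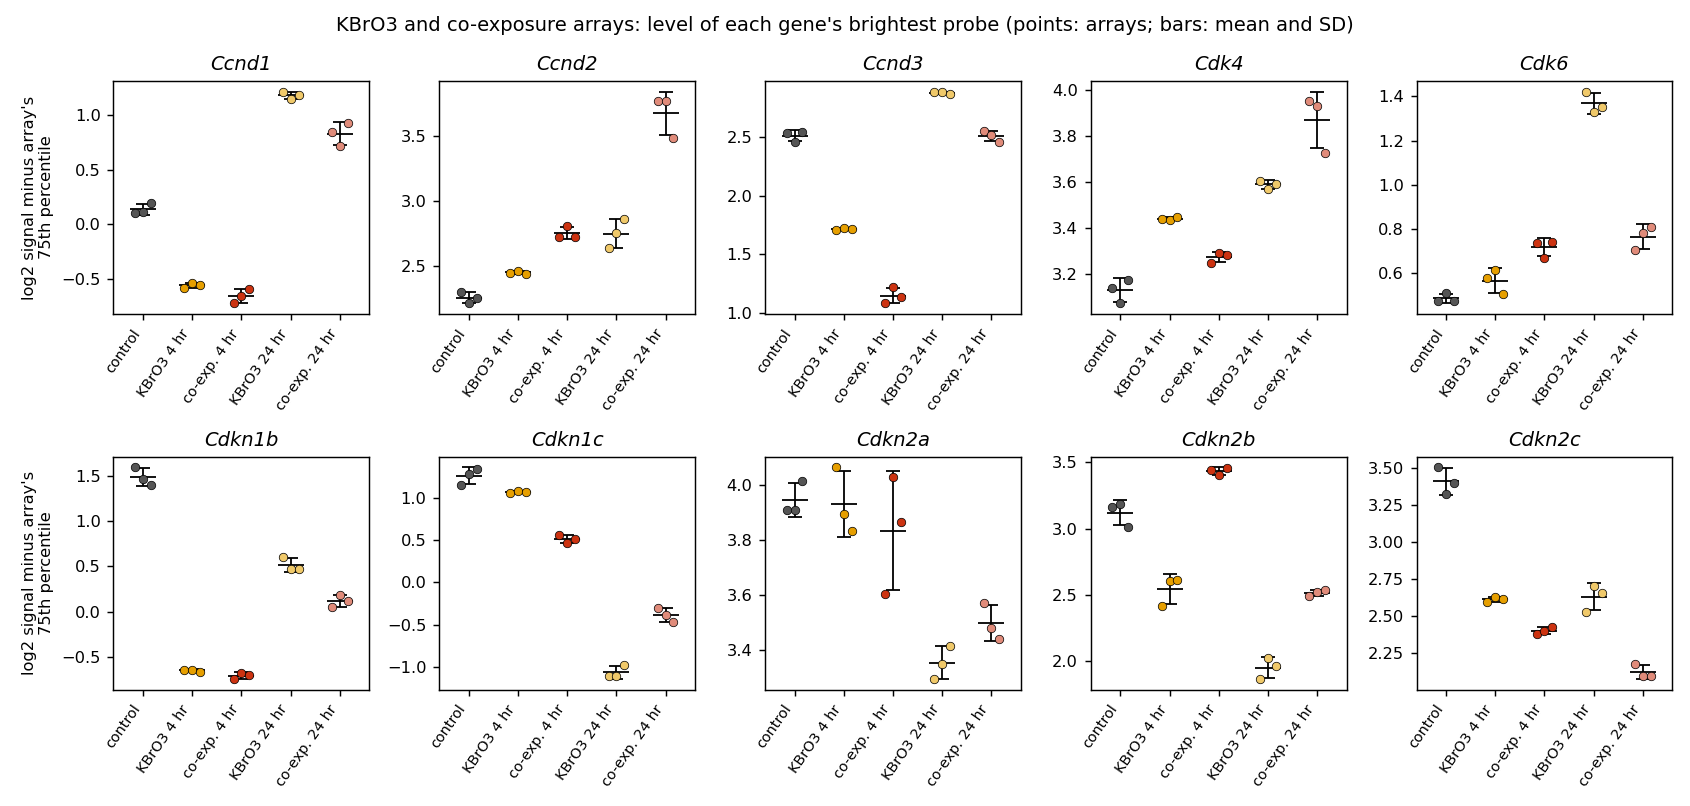
Level of each gene on the 15 arrays of the first set (vertical axis, log2 signal minus the array's 75th percentile, scaled per gene), with a point per array and a bar for the group mean and SD. Ccnd1 and Ccnd3 lie below the controls at 4 hr and Ccnd1 above them at 24 hr, and Cdkn1b and Cdkn2c lie below the controls in all 4 treated groups.

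In cells given KBrO3 alone, 8 of the 10 genes changed at 4 hr, 2 upward and 6 downward. The falls included 2 cyclins, Ccnd1 and Ccnd3, and 4 inhibitors, Cdkn1b, Cdkn1c, Cdkn2b and Cdkn2c, and the rises were those of Cdk4 and Ccnd2. Calls were common in this comparison: of 27310 probes tested, 36.3% were higher and 35.8% lower. The median change of the 10 genes was −0.38 on the log2 scale, against 0.059 over all probes. By the stricter thresholds 4 genes passed, all lower (Ccnd1, Ccnd3, Cdkn1b and Cdkn2c), against 28.8% of probes.

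After co-exposure 9 genes had changed at 4 hr, 4 upward (Ccnd2, Cdk4, Cdk6 and Cdkn2b) and 5 downward (Ccnd1, Ccnd3, Cdkn1b, Cdkn1c and Cdkn2c). Over all probes 41.6% were higher and 37% lower. The stricter thresholds were passed by the 5 genes that fell, against 32.6% of probes. The share of the 10 genes called was thus near the share of all probes in both 4 hr comparisons, and what follows rests on the size and direction for each gene. Scaling mattered to the split: quantile normalization gave 7 genes lower and none higher after KBrO3 alone and 3 higher with 6 lower after co-exposure, and scaling to the median gave 1 higher and 5 lower after co-exposure. KBrO3 alone and co-exposure were compared with the same 3 control arrays. Arrays of co-exposure at 4 hr and of both 24 hr groups shared no slide with the controls, so that in these comparisons slide cannot be told apart from treatment, and slide as a random block ended 1 of their calls, that of Cdk4 after co-exposure at 4 hr.

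At 24 hr all 10 genes differed from control after KBrO3 alone, 5 upward (the 3 cyclins and both kinases) and 5 downward (the 5 inhibitors). Over all probes 32.1% were higher and 34% lower. After co-exposure 9 genes differed, 4 upward (Ccnd1, Ccnd2, Cdk4 and Cdk6) and again the 5 inhibitors downward, and the corresponding shares of probes were 32.9% and 37%. With normexp background correction 9 genes differed after KBrO3 alone, Cdkn2a being lost, and 7 after co-exposure (4 higher, 3 lower), Cdkn2a and Cdkn2b being lost. Scaling to the median gave 5 higher and 4 lower after co-exposure. The fall of Cdkn1b after KBrO3 alone was called by its brightest probe only. The stricter thresholds were passed by 6 genes in each case. After KBrO3 alone these were Ccnd1 and Cdk6 upward with Cdkn1b, Cdkn1c, Cdkn2b and Cdkn2c downward, against 16.8% of probes. After co-exposure they were Ccnd1, Ccnd2 and Cdk4 upward with Cdkn1b, Cdkn1c and Cdkn2c downward, against 20.8% of probes.

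**Figure D2:**
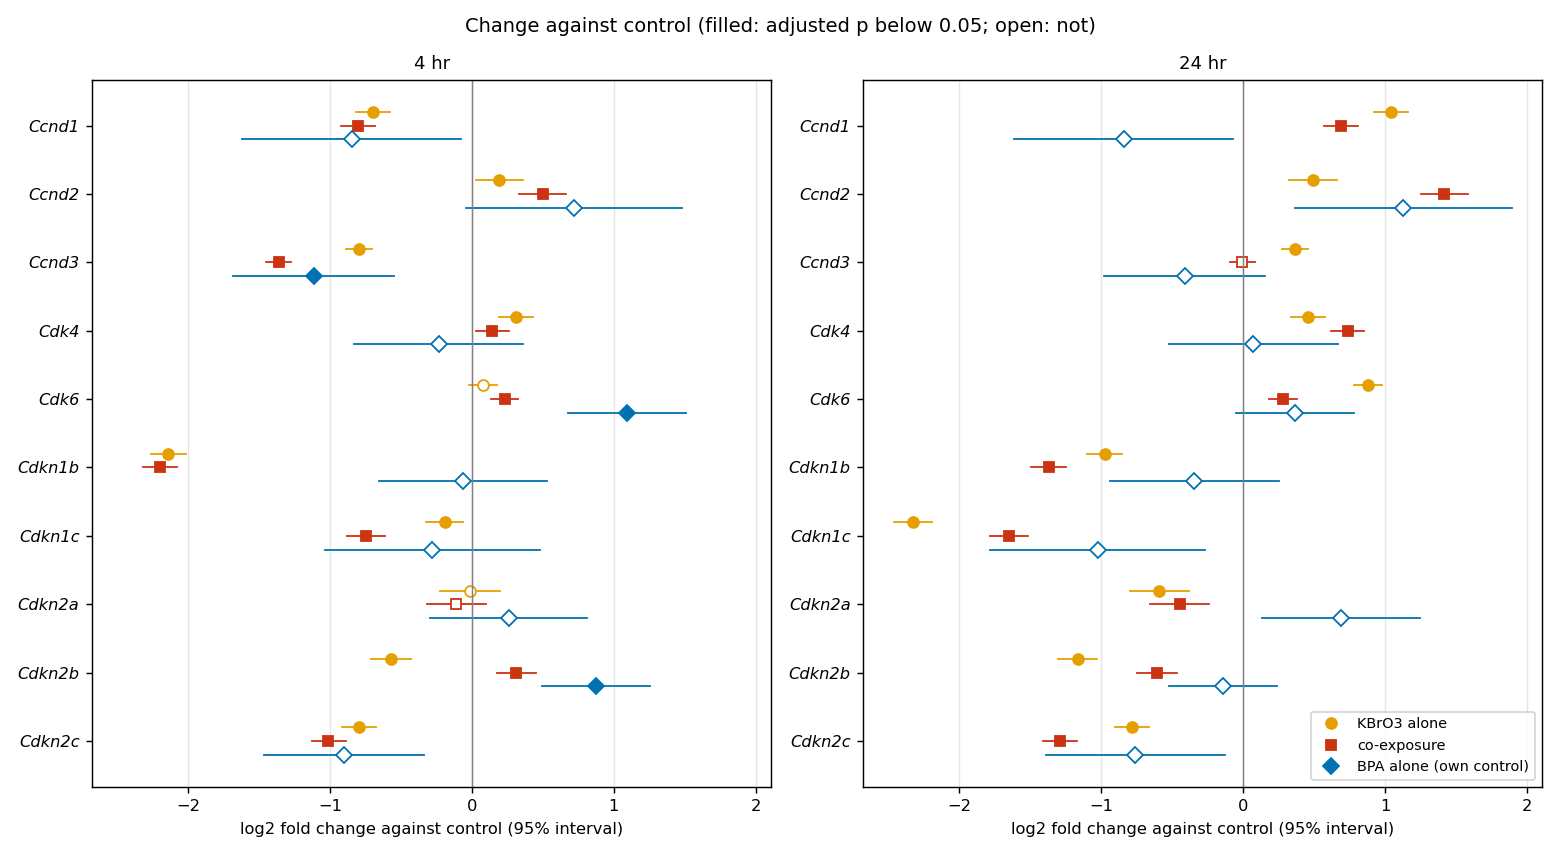
Log2 fold change of each gene against the controls of its own set (horizontal axis, with 95% intervals) at 4 hr (left) and 24 hr (right) for KBrO3 alone, co-exposure and BPA alone, filled where the adjusted p lies below 0.05. At 24 hr the 5 inhibitors lie left of 0 after KBrO3 alone and after co-exposure, while intervals for BPA alone are wider.

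Ccnd1, the cyclin most closely tied to growth factor signals, first fell and then rose. Its level was 0.11, 0.12 and 0.20 in the controls, −0.58, −0.54 and −0.56 at 4 hr after KBrO3 alone and −0.73, −0.66 and −0.60 after co-exposure. At 24 hr it was 1.22, 1.15 and 1.18 after KBrO3 alone and 0.84, 0.72 and 0.93 after co-exposure. Both 4 hr groups lay below every control and both 24 hr groups above, without overlap. The fall at 4 hr was 1.62-fold after KBrO3 alone (log2 −0.70 ± 0.0549 SE, adjusted p = 1.57e-07) and 1.74-fold after co-exposure (log2 −0.80 ± 0.0549 SE, adjusted p = 3.75e-08). The rise at 24 hr was 2.06-fold (log2 1.04 ± 0.0549 SE, adjusted p = 7.91e-09) and 1.61-fold (log2 0.69 ± 0.0549 SE, adjusted p = 2.49e-07).

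Ccnd3 shared the early fall, and co-exposure deepened it. Its level was 2.54, 2.46 and 2.54 in the controls, 1.71, 1.72 and 1.72 at 4 hr after KBrO3 alone and 1.09, 1.22 and 1.14 after co-exposure, so that the 3 groups formed separate steps. The change was −0.80 ± 0.0416 (SE, log2) after KBrO3 alone and −1.36 ± 0.0416 after co-exposure, with adjusted p = 3.18e-09 and 2.11e-11. At 24 hr the level was 2.89, 2.88 and 2.87 after KBrO3 alone, above the controls (log2 0.37, adjusted p = 7.8e-06). After co-exposure it was 2.55, 2.52 and 2.46, which overlapped the controls, and the difference was −0.005 with a 95% interval of −0.095 to 0.086. That last difference became 0.31 when arrays were scaled to their median.

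Ccnd2 took a different course from the other cyclins and was higher than in controls in all 4 treated groups. Its level rose from 2.30, 2.21 and 2.25 in the controls to 3.77, 3.77 and 3.48 at 24 hr after co-exposure, a 2.67-fold rise (log2 1.42 ± 0.0768 SE, adjusted p = 7.05e-09). The other groups lay between: 2.45, 2.46 and 2.44 at 4 hr after KBrO3 alone, 2.73, 2.81 and 2.72 after co-exposure, and 2.64, 2.75 and 2.86 at 24 hr after KBrO3 alone. The 4 hr co-exposure and 24 hr KBrO3 groups overlapped each other. The rise at 4 hr after KBrO3 alone was small (log2 0.19 ± 0.0768 SE, adjusted p = 0.0387). It did not pass when any 1 of 5 arrays was left out (control 2 or 3, or any of the KBrO3 4 hr arrays, with adjusted p up to 0.106), with quantile normalization (0.016, adjusted p = 0.838), with scaling to the median (adjusted p = 0.163), with the replicate block (0.0579), without the filter on low probes (0.0537) or with the mean over probes (0.101, adjusted p = 0.0786).

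By their brightest probes, the kinases changed little at 4 hr and were higher by 24 hr. Cdk4 was 3.14, 3.08 and 3.18 in the controls and 3.44, 3.44 and 3.45 at 4 hr after KBrO3 alone, a 1.24-fold rise (log2 0.31 ± 0.0538 SE, adjusted p = 0.000207) that was lost with quantile normalization (0.082, adjusted p = 0.13). After co-exposure it was 3.25, 3.29 and 3.29 at 4 hr (log2 0.15 ± 0.0538 SE, adjusted p = 0.0267), a change that became −0.026 with quantile normalization and 0.002 with scaling to the median. It was not called with slide as a random block (0.098, adjusted p = 0.255), without control 2, or without co-exposure 2 or 3 (adjusted p up to 0.0993). At 24 hr Cdk4 was 3.61, 3.57 and 3.59 after KBrO3 alone and 3.95, 3.93 and 3.73 after co-exposure, and the 5 groups of the set did not overlap. The 24 hr rises were 1.37-fold (adjusted p = 1.01e-05) and 1.67-fold (adjusted p = 1.1e-07).

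Cdk6 was highest at 24 hr after KBrO3 alone, at 1.42, 1.33 and 1.35 against 0.48, 0.51 and 0.47 in the controls, a 1.84-fold rise (log2 0.88 ± 0.0441 SE, adjusted p = 5.17e-09). After co-exposure it was 0.74, 0.67 and 0.74 at 4 hr and 0.71, 0.78 and 0.81 at 24 hr, with rises of 1.17-fold and 1.21-fold (adjusted p = 0.000427 and 0.000112), and these groups overlapped each other. The former was lost when arrays were scaled to their median (0.088, adjusted p = 0.29), and by the dimmer RefSeq probe it was 1.91-fold (log2 0.93, adjusted p = 4.6e-05). By that probe the rise at 24 hr after co-exposure was 3.04-fold (log2 1.61, adjusted p = 4.57e-07), and the 2 times differed (log2 0.67, adjusted p = 0.000635). At 4 hr after KBrO3 alone its level, 0.58, 0.62 and 0.51, overlapped the controls, with a difference of 0.08 and an interval of −0.017 to 0.18.

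Cdkn1b, which encodes p27, had the largest change of the 10 genes at 4 hr. Its level was 1.60, 1.47 and 1.40 in the controls, −0.64, −0.64 and −0.66 at 4 hr after KBrO3 alone and −0.75, −0.68 and −0.70 after co-exposure. Both treated groups lay far below the controls and, although they did not overlap, close to each other. The falls were 4.40-fold (log2 −2.14 ± 0.0563 SE, adjusted p = 8.21e-12) and 4.58-fold (log2 −2.20 ± 0.0563 SE, adjusted p = 4.98e-12). The first held within the slide that carried control 3 and the 3 KBrO3 arrays, where the difference was −2.05. At 24 hr the level had partly returned, to 0.60, 0.47 and 0.47 after KBrO3 alone and 0.056, 0.19 and 0.12 after co-exposure. By this probe these were still 1.97-fold and 2.58-fold below the controls (adjusted p = 1.78e-08 and 5.72e-10). By the other probes, described later, the 24 hr fall after KBrO3 alone was not called (adjusted p = 0.0819 and 0.431), and that after co-exposure was smaller.

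Cdkn1c, which encodes p57 and is imprinted, fell mainly at 24 hr. It was 1.15, 1.29 and 1.35 in the controls and 1.06, 1.09 and 1.07 at 4 hr after KBrO3 alone, a small fall (log2 −0.19 ± 0.0607 SE, adjusted p = 0.0133) that was lost without control 3 (adjusted p = 0.0576), with scaling to the median (adjusted p = 0.0837) and with normexp (−0.034, adjusted p = 0.793). Co-exposure lowered it more at 4 hr, to 0.56, 0.47 and 0.51 (log2 −0.75 ± 0.0607 SE, adjusted p = 1.88e-07). At 24 hr the order was turned: the level was −1.11, −1.11 and −0.97 after KBrO3 alone and −0.30, −0.39 and −0.47 after co-exposure. These were 5.01-fold (log2 −2.33 ± 0.0607 SE, adjusted p = 1.9e-11) and 3.13-fold (log2 −1.65 ± 0.0607 SE, adjusted p = 2.14e-10) below the controls, and the former was the largest fall of any of the 10 genes against control.

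Of the INK4 genes, Cdkn2c, which encodes p18, was lower than in controls throughout. It was 3.51, 3.32 and 3.40 in the controls, 2.60, 2.63 and 2.61 at 4 hr after KBrO3 alone and 2.38, 2.40 and 2.43 after co-exposure. At 24 hr it was 2.53, 2.70 and 2.66 after KBrO3 alone, which overlapped the 4 hr group, and 2.18, 2.10 and 2.09 after co-exposure, the lowest group of the 5. The fall ranged from 1.72-fold (KBrO3 alone at 24 hr, adjusted p = 1.03e-07) to 2.44-fold (co-exposure at 24 hr, adjusted p = 7.65e-10).

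Cdkn2b, which encodes p15, moved in opposite directions at 4 hr without and with BPA. It was 3.16, 3.18 and 3.01 in the controls, fell to 2.42, 2.61 and 2.62 after KBrO3 alone (log2 −0.57 ± 0.0638 SE, adjusted p = 4.29e-06) and rose to 3.44, 3.40 and 3.46 after co-exposure (log2 0.31 ± 0.0638 SE, adjusted p = 0.000672), with no overlap among the 3 groups. The rise was not called when arrays were scaled to their median (0.17, adjusted p = 0.158), nor the fall with normexp (−0.32, adjusted p = 0.082). At 24 hr both treated groups lay below the controls, at 1.87, 2.03 and 1.97 after KBrO3 alone (2.24-fold, adjusted p = 1.13e-08) and 2.49, 2.52 and 2.54 after co-exposure (1.52-fold, adjusted p = 3.39e-06), the latter lost with normexp (−0.27, adjusted p = 0.113).

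Cdkn2a had the narrowest range of group means of the 10 genes in this set, 0.59. Its levels at 4 hr, 4.06, 3.89 and 3.83 after KBrO3 alone and 3.60, 4.03 and 3.87 after co-exposure, overlapped those of the controls, 3.91, 3.91 and 4.01. The intervals of the differences were −0.22 to 0.20 and −0.32 to 0.098, and quantile normalization called both lower (−0.23 with adjusted p = 0.0362 and 0.0282). At 24 hr it had fallen to 3.30, 3.35 and 3.42 after KBrO3 alone (1.504-fold, adjusted p = 0.000151) and 3.57, 3.48 and 3.44 after co-exposure (1.36-fold, adjusted p = 0.0012), and these 2 groups overlapped. Normexp ended both 24 hr calls (−0.25 and −0.11, adjusted p = 0.247 and 0.594), and scaling to the median ended that after co-exposure (−0.13, adjusted p = 0.385).

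The other genes of the G1/S pathway were examined as a list of 31 genes in 6 roles, of which 26 changed after KBrO3 alone at 4 hr (13 higher, 13 lower) and 25 after co-exposure (12 higher, 13 lower). At 24 hr 25 changed in each case, with 16 higher after KBrO3 alone and 15 after co-exposure. Of all probes tested 36.3% were higher and 35.8% lower at 4 hr without BPA (41.6% and 37% with it), against 32.1% and 34% at 24 hr (32.9% and 37%). These shares are the background of every gene list given here, and no list was tested against them. Cdkn1a, which encodes the p53-induced inhibitor p21, rose by 3.08 ± 0.0732 (SE, log2) at 4 hr after KBrO3 alone, when Cdkn1b of the same family fell. Its rise at 24 hr was 1.13 without BPA and 2.78 with it (adjusted p = 5.2e-08 and 1.11e-11). Cdkn2d, the remaining INK4 gene (p19INK4d), fell by 2.52 at 4 hr after KBrO3 alone and by 3.83 after co-exposure. In the ARF arm, Mdm2 rose by 2.04 and 1.71 at 4 hr (adjusted p = 1.72e-11 and 5.64e-11) and Trp53, its target, by 0.75 and 0.34 (adjusted p = 2.86e-05 and 0.00981).

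Of the cyclin E-CDK2 group, Ccne1 rose by 1.55 and 1.74 at 4 hr after KBrO3 alone and co-exposure, opposite to Ccnd1 and Ccnd3, and Cdc25a, the phosphatase that activates Cdk2, by 1.83 and 1.36. Ccne2 rose by 0.39 and 0.29 at 4 hr and fell by 0.71 and 0.77 at 24 hr. Cdk2 itself did not pass the test in any of these comparisons, with intervals of −0.21 to 0.21 and −0.36 to 0.053 at 4 hr. All 3 pocket proteins fell at 4 hr in both cases. Rbl2 (p130) fell by 1.72 and 1.71, Rbl1 (p107) by 1.20 and 0.55 and Rb1 by 0.26 and 0.60. Fbxo31, a ubiquitin ligase subunit that directs cyclin D1 to degradation after DNA damage, fell by 1.87 and 2.28 at 4 hr, and Fbxw7, which targets cyclin E, rose by 1.15 and 1.10.

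Among the 10 E2F and DP genes, 8 changed at 4 hr after KBrO3 alone and 9 at 24 hr. E2f3 rose by 0.89 at 4 hr and fell by 0.40 at 24 hr, and E2f2 did the reverse (−0.32 and 0.75). E2f1 passed only at 24 hr of the 2 times, with rises of 0.44 after KBrO3 alone and 0.88 after co-exposure. A list of 6 genes of proliferating cells was set beside them: 4 of the 6 fell at 4 hr after KBrO3 alone and 5 after co-exposure, and all 6 rose at 24 hr after KBrO3 alone, while after co-exposure 3 were then higher and 2 lower. Their summed relative signal was 67.6 to 68.1 on the control arrays, 45.7 to 51.6 and 33.8 to 35.2 at 4 hr after KBrO3 alone and co-exposure, and 110 to 117 and 65.9 to 67.7 at 24 hr. The 8 fibroblast markers all fell at 24 hr in both cases, from a summed signal of 1480 to 1590 to one of 651 to 740 after KBrO3 alone and 439 to 520 after co-exposure. In both of these groups 7 of the 8 were well above background on all 3 arrays, and 1 was so on none after co-exposure. In bulk RNA a smaller share of cycling cells and less RNA per cell cannot be told apart, and the part of either in the levels of the 10 genes was not tested.

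**Figure D3:**
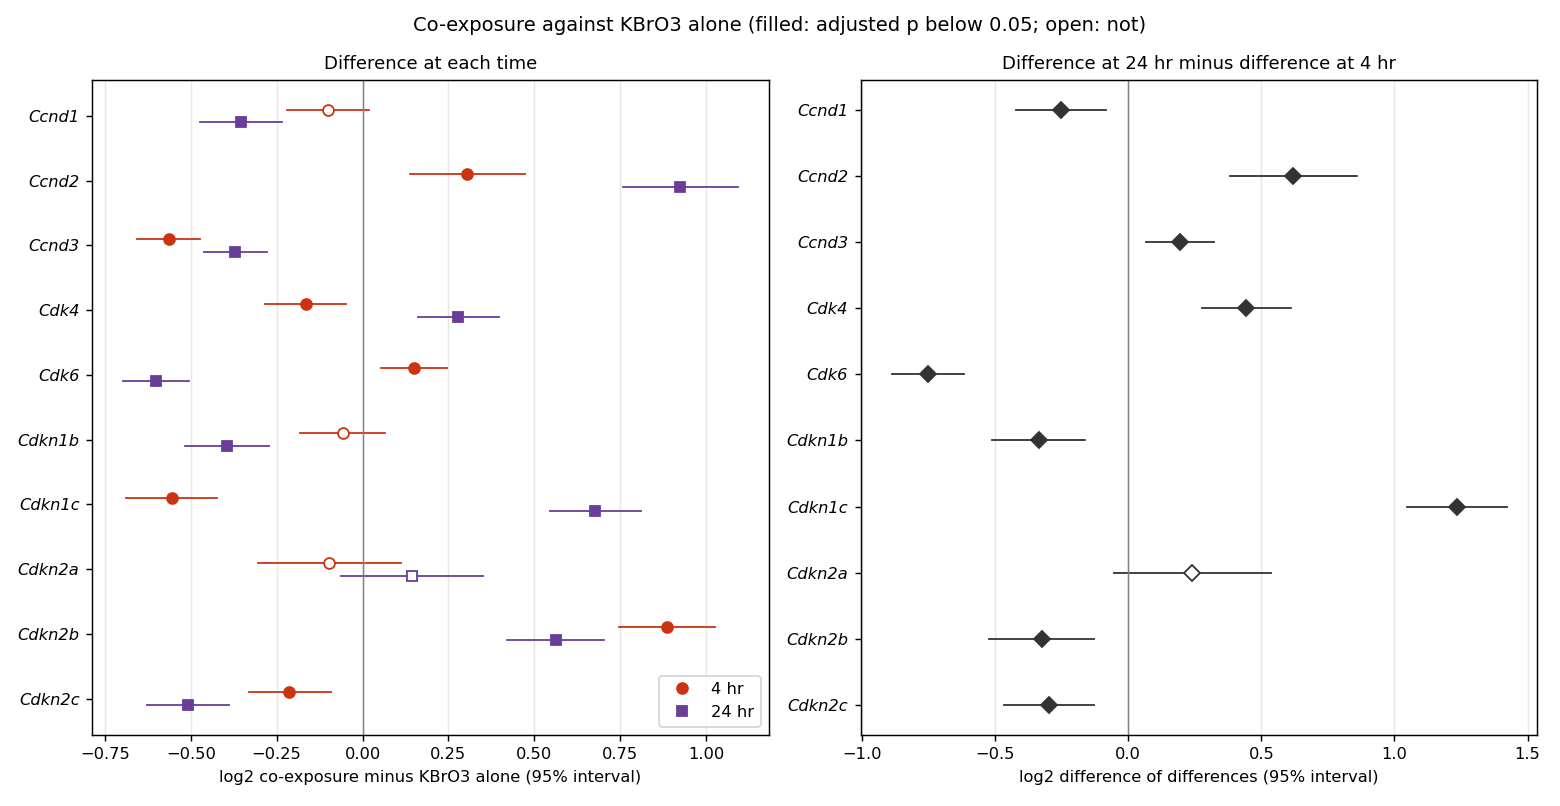
Left, log2 difference between co-exposure and KBrO3 alone for each gene at 4 and 24 hr (horizontal axis, with 95% intervals); right, the difference at 24 hr minus that at 4 hr; filled where the adjusted p lies below 0.05. Cdkn1c, Cdk4 and Cdk6 lie on opposite sides of 0 at the 2 times, and Cdkn2b and Ccnd2 lie right of 0 at both.

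The effect of adding BPA to KBrO3 was taken from co-exposure against KBrO3 alone. At 4 hr 7 genes differed, 3 higher with BPA (Ccnd2, Cdk6 and Cdkn2b) and 4 lower (Ccnd3, Cdk4, Cdkn1c and Cdkn2c), against 29.2% of probes higher and 28.6% lower. Cdkn2b had the largest difference, 1.85-fold higher (log2 0.89 ± 0.0638 SE, adjusted p = 5.97e-07), and it alone passed the stricter thresholds, as did 4.99% of probes. Ccnd3 was lower by 0.57 ± 0.0416 (SE, log2) and Cdkn1c by 0.56 ± 0.0607, with adjusted p = 7.18e-07 and 1.39e-05. The differences in Ccnd2, Cdk4, Cdk6 and Cdkn2c were smaller, at 0.31, −0.17, 0.15 and −0.21, and none of the 4 calls held with normexp. The random slide block ended those of Cdk4, Cdk6 and Cdkn2c (adjusted p = 0.0829, 0.228 and 0.194). Scaling to the median ended those of Cdk6 (0.008, adjusted p = 0.934) and Ccnd2 (0.16, adjusted p = 0.269). Quantile normalization ended that of Cdk4 (−0.11, adjusted p = 0.0642). Leaving out KBrO3 4 hr array 3 ended the calls of Cdk4 and Cdk6 (adjusted p = 0.0532 and 0.0571), and leaving out co-exposure 4 hr array 1 that of Cdk4 (0.0628). The 2 groups compared shared no slide, whose effect cannot be told apart from that of treatment, and the count fell from 7 to 4 with slide as a random block and to 3 with normexp, and scaling to the median gave 1 higher and 6 lower.

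At 24 hr 9 genes differed, 4 higher with BPA (Ccnd2, Cdk4, Cdkn1c and Cdkn2b) and 5 lower (Ccnd1, Ccnd3, Cdk6, Cdkn1b and Cdkn2c), against 23.1% and 23.7% of probes. Ccnd2 was 1.90-fold higher (log2 0.93 ± 0.0768 SE, adjusted p = 1.38e-06), Cdkn1c 1.60-fold higher (log2 0.68 ± 0.0607 SE, adjusted p = 2.61e-06) and Cdk6 1.52-fold lower (log2 −0.60 ± 0.0441 SE, adjusted p = 4.84e-07). These 3 passed the stricter thresholds, as did 5.8% of probes. Arrays of both groups shared 1 slide, on which the differences were 0.97, 0.70 and −0.60. Cdkn2b was 1.48-fold higher (adjusted p = 1.86e-05) and Cdkn2c 1.42-fold lower (adjusted p = 1.18e-05), and Cdkn2a differed by 0.14 with an interval of −0.064 to 0.35. With normexp the count fell from 9 to 5 (3 higher, 2 lower). The calls lost were those of Ccnd3, Cdk4, Cdkn1b and Cdkn2c (adjusted p = 0.15, 0.573, 0.0585 and 0.087). Scaling to the median gave 4 higher and 3 lower, Ccnd1 and Ccnd3 being lost.

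The difference at 24 hr was then tested against that at 4 hr. It changed for 9 of the 10 genes, upward for Ccnd2, Ccnd3, Cdk4 and Cdkn1c and downward for Ccnd1, Cdk6, Cdkn1b, Cdkn2b and Cdkn2c, against 25.5% and 28.7% of probes. The largest changes were those of Cdkn1c (1.23 ± 0.0859 SE, adjusted p = 8.17e-07) and Cdk6 (−0.75 ± 0.0624 SE, adjusted p = 2.83e-06), the 2 genes that passed the stricter thresholds, as did 3.84% of probes. For both, and for Cdk4 (0.44 ± 0.076 SE, adjusted p = 0.000504), the difference had opposite signs at the 2 times. The 4 hr side of both kinases did not hold in every setting, as given above. At 24 hr the call of Cdk4 was lost with normexp (0.23, adjusted p = 0.573) and that of Cdk6 by its RefSeq probe (−0.14, adjusted p = 0.427). Slide as a random block ended the calls of Ccnd3 (0.21, adjusted p = 0.0788) and Cdkn1b (−0.21, adjusted p = 0.15). Scaling to the median moved the median of all probes in this comparison by 0.31, turned the change of Ccnd1 to 0.058 and that of Cdkn2c to 0.015, and brought those of Cdkn1b and Cdkn2b to −0.024 and −0.013 (adjusted p = 0.873 and 0.95). The calls were then 5 higher (Ccnd2, Ccnd3, Cdk4, Cdkn1c and, newly, Cdkn2a at 0.55) and 1 lower (Cdk6). Quantile normalization lowered the change of Ccnd3 to 0.048 (adjusted p = 0.509). With normexp the count fell from 9 to 2 (Cdkn1c and Cdk6), although the other 7 kept their direction, at −0.26 for Ccnd1, 0.57 for Ccnd2, 0.15 for Ccnd3, 0.38 for Cdk4, −0.35 for Cdkn1b, −0.26 for Cdkn2b and −0.33 for Cdkn2c.

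From 4 to 24 hr, 9 genes changed after KBrO3 alone, 6 upward and 3 downward, against 33% and 42.3% of probes. Those that rose were the 3 cyclins, both kinases and Cdkn1b, and those that fell were Cdkn1c, Cdkn2a and Cdkn2b. Ccnd1 rose 3.34-fold, Ccnd3 2.24-fold and Cdkn1b 2.24-fold, and Cdkn1c fell 4.39-fold (adjusted p = 4.82e-11, 1.42e-10, 1.91e-09 and 2.15e-11). The rise of Cdk4, 0.15, was lost with the random slide block (adjusted p = 0.135), with normexp (0.339) and without any 1 of 5 arrays (KBrO3 4 hr 1, 2 or 3, or 24 hr 1 or 3, adjusted p up to 0.0604), and that of Ccnd2 was lost with normexp (adjusted p = 0.0957). After co-exposure 9 also changed, 5 upward (the 3 cyclins, Cdk4 and Cdkn1b) and 4 downward (Cdkn1c, Cdkn2a, Cdkn2b and Cdkn2c), against 32.8% and 48.4% of probes. Cdk6, at 0.049 by its brightest probe, was called by its RefSeq probe (0.67, adjusted p = 0.000635), with the mean over probes (0.36) and with scaling to the median (0.51). Scaling to the median, which moved all probes by 0.46 here, gave 0.13 for Cdkn2a and 0.18 for Cdkn2c in place of −0.34 and −0.28, and a split of 6 higher and 2 lower, while normexp gave 5 higher and 2 lower.

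**Figure D4:**
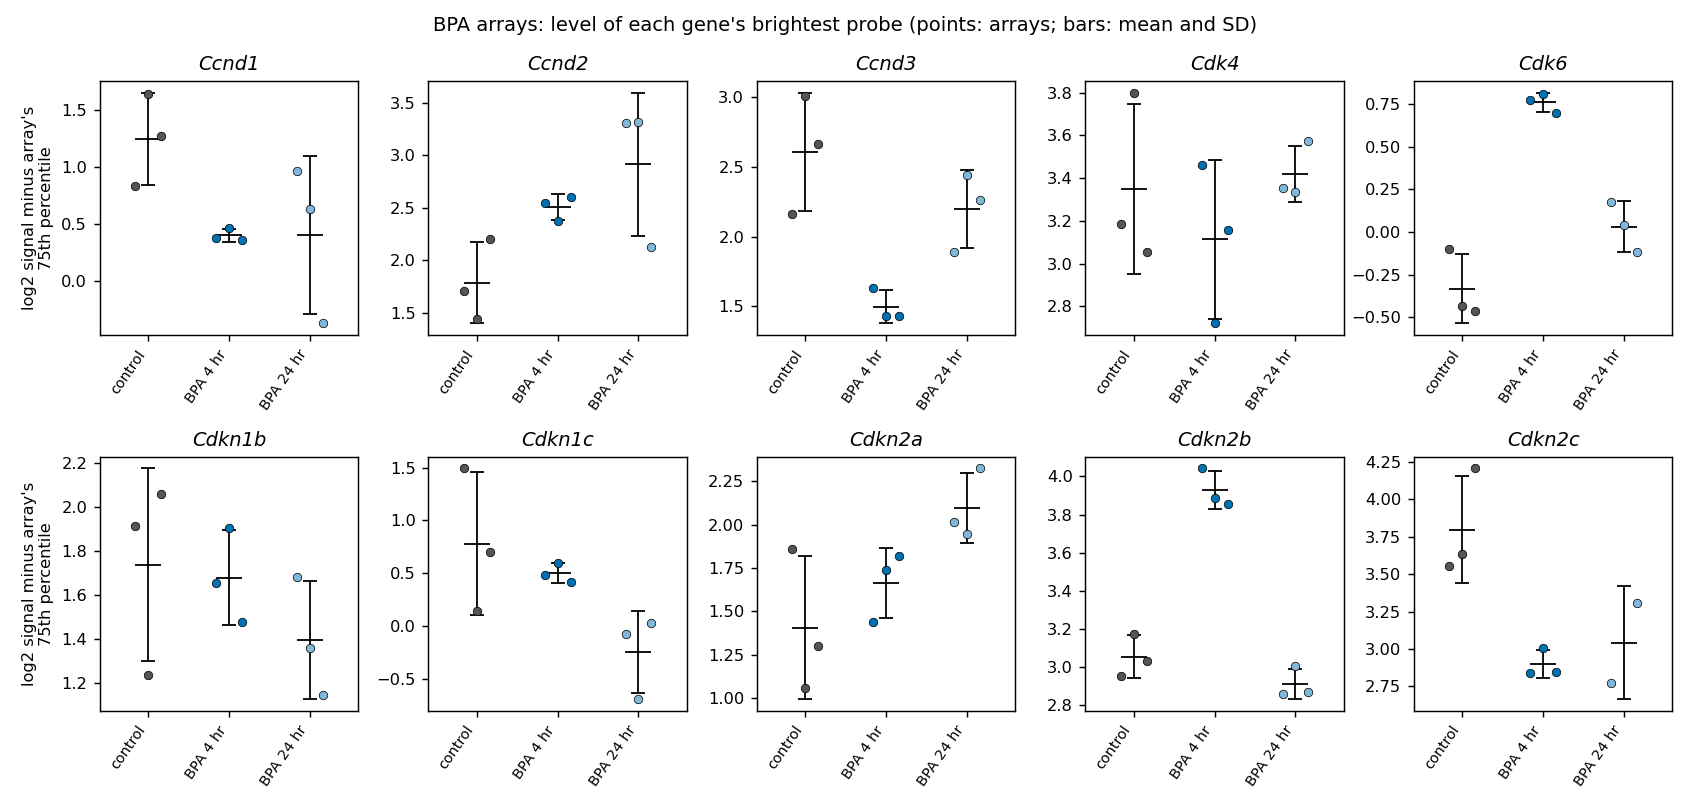
Level of each gene on the 9 arrays of the second set (vertical axis, log2 signal minus the array's 75th percentile, scaled per gene), with a point per array and a bar for the group mean and SD; 1 Cdkn2c spot at 24 hr was an outlier and is left out. Cdk6 and Cdkn2b at 4 hr lie above every control and every 24 hr array.

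BPA alone changed 3 of the 10 genes at 4 hr, raising Cdk6 and Cdkn2b and lowering Ccnd3, against 2.83% of the 31810 probes tested higher and 1.41% lower. Cdk6 was −0.10, −0.44 and −0.46 in the controls and 0.77, 0.81 and 0.70 at 4 hr, a 2.13-fold rise (log2 1.09 ± 0.18 SE, adjusted p = 0.0135). Cdkn2b was 2.95, 3.17 and 3.03 in the controls and 4.04, 3.89 and 3.86 at 4 hr, a 1.83-fold rise (log2 0.88 ± 0.17 SE, adjusted p = 0.0236). Ccnd3 was 2.16, 3.01 and 2.66 in the controls and 1.64, 1.43 and 1.43 at 4 hr, a 2.16-fold fall (log2 −1.11 ± 0.25 SE, adjusted p = 0.0416). In none of the 3 did the groups overlap. None of the 10 genes passed the stricter thresholds, which 0.066% of probes did.

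These 3 calls did not hold in every setting. None of the 10 genes was called when control 3 or any 1 of the 3 BPA 4 hr arrays was left out, or with normexp background correction or slide as a fixed block, and 1 gene, Cdk6, was called when arrays were scaled to their median, with only the 6 arrays of these groups, or with a replicate block. The changes themselves stayed at 1.03 to 1.21 for Cdk6, 0.82 to 0.94 for Cdkn2b and −1.34 to −0.92 for Ccnd3 whichever array was left out, and were 0.98, 0.82 and −1.03 with normexp. On the slide that carried control 1 and BPA 4 hr arrays 1 and 3, the differences were 0.84 for Cdk6, 0.995 for Cdkn2b and −0.63 for Ccnd3. In this comparison 5 genes had an unadjusted p below 0.05, as did 18.8% of probes, the others being Ccnd1 (log2 −0.85, interval −1.62 to −0.075) and Cdkn2c (log2 −0.90, interval −1.47 to −0.34). Cdkn1b, the gene with the largest fall at 4 hr after KBrO3, differed by −0.06 after BPA alone, with an interval of −0.65 to 0.53, while by its RefSeq probes the intervals were wider (−1.20 to 3.02 and −1.98 to 1.30) and held 2-fold changes in both directions.

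At 24 hr none of the 10 genes was called after BPA alone (limma), against 1.39% of probes higher and 2.02% lower, and 0.0189% by the stricter thresholds. An unadjusted p below 0.05 was reached by 5 genes and by 18.3% of probes. Ccnd2 was 3.30, 3.31 and 2.13 against 1.71, 1.45 and 2.21 in the controls (log2 1.13, interval 0.37 to 1.89, adjusted p = 0.116), where BPA 24 hr array 3 overlapped the controls. Without that array its change was called (adjusted p = 0.0238). Cdkn1c was −0.073, −0.69 and 0.027 against 1.49, 0.15 and 0.70 (log2 −1.02, adjusted p = 0.148), and Cdkn2a was 2.02, 1.94 and 2.33 against 1.86, 1.06 and 1.30 (log2 0.69, adjusted p = 0.179), in both without overlap. The others were Ccnd1 (−0.84) and Cdkn2c (−0.76, from 2 arrays at 24 hr). From 4 to 24 hr 1 gene changed, Cdkn2b, which fell 2.03-fold to 2.86, 3.00 and 2.87 (log2 −1.02 ± 0.17 SE, adjusted p = 0.0133), against 1% of probes higher and 2.79% lower. That call was lost when any 1 of the 3 BPA 4 hr arrays was left out (adjusted p up to 0.0661).

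BPA alone and BPA added to KBrO3 were measured in different sets with different controls, and the difference between them was not tested. At 4 hr the change with BPA alone and the difference with BPA added were 0.88 and 0.89 for Cdkn2b, −1.11 and −0.57 for Ccnd3, and 1.09 and 0.15 for Cdk6 (1.83 and 1.03 by its RefSeq probe). The 3 genes called with BPA alone had the same sign in both sets, although with scaling to the median the Cdk6 difference with BPA added was 0.008. How many of all probes shared a sign between the sets was not counted. At 24 hr the values were 1.13 and 0.93 for Ccnd2. Signs were then opposite for Cdkn1c (−1.02 and 0.68), Cdk6 (0.36 and −0.60) and Cdkn2b (−0.14 and 0.56) and the same for the other genes. None of the 10 genes was called with BPA alone at 24 hr. The summed signal of the 6 proliferation genes was 66.8 to 89.5 on the second set's controls, 48.5 to 56.3 at 4 hr of BPA alone and 47.2 to 51.4 at 24 hr, and its part in the levels of the 10 genes was not tested. None of the 31 genes of the G1/S list was called with BPA alone at either time (limma), with an unadjusted p below 0.05 for 5 at 4 hr and 6 at 24 hr, against the 18.8% and 18.3% of all probes. Cdkn1a was 0.64 at 4 hr and 1.04 at 24 hr, with intervals of 0.08 to 1.20 and 0.48 to 1.60 and adjusted p = 0.202 and 0.0589.

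**Figure D5:**
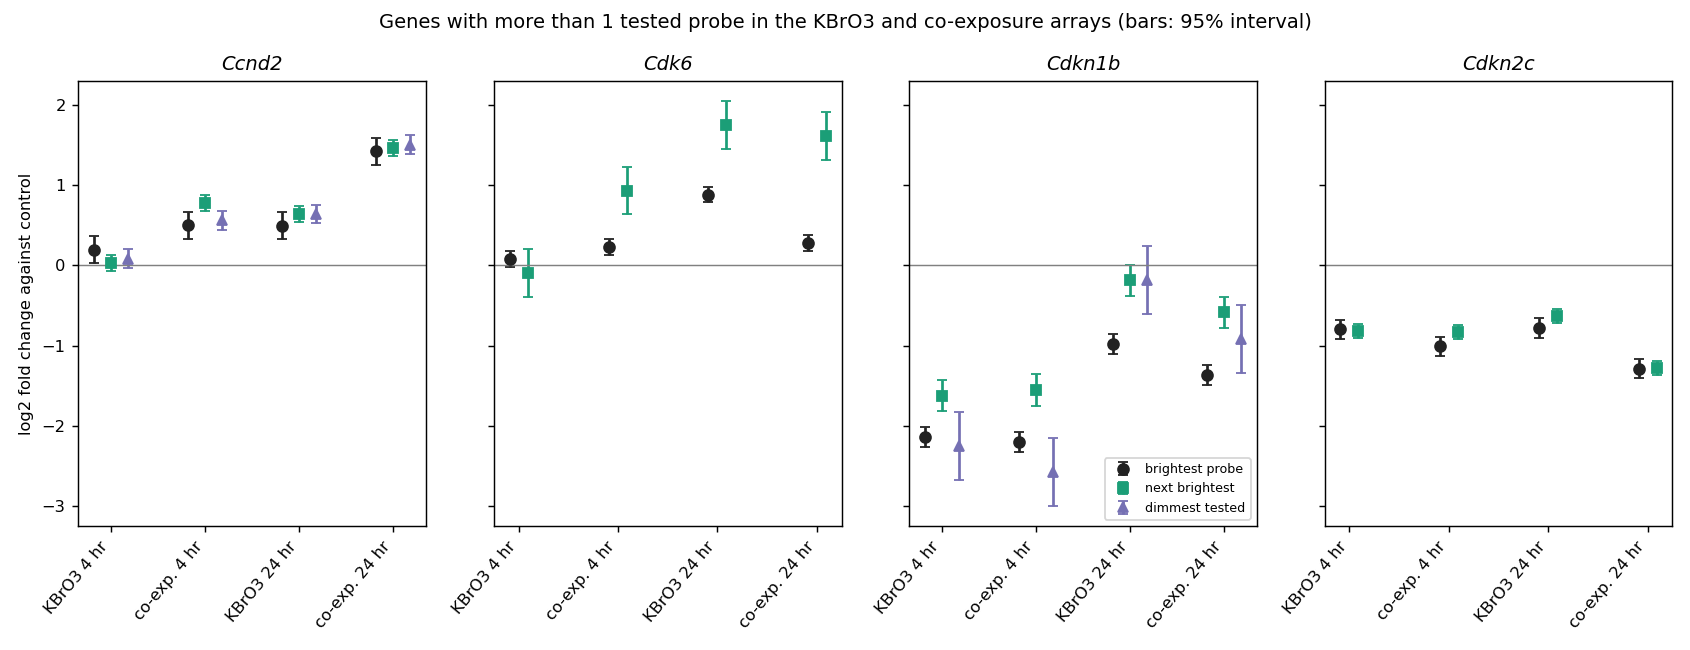
Log2 fold change against control (vertical axis, with 95% intervals) in the 4 treated groups of the first set for each tested probe of the 4 genes with more than 1, ordered from the brightest probe. The probes of Cdkn2c lie near each other. Those of Cdk6 lie apart after co-exposure at both times and after KBrO3 alone at 24 hr, and those of Cdkn1b lie apart at both times.

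In all, 4 genes had more than 1 tested probe in the first set. The 3 probes of Ccnd2 gave rises of 1.42, 1.46 and 1.503 at 24 hr after co-exposure, and at 4 hr after KBrO3 alone the brightest was called (0.19) while the other 2 were not (0.026 and 0.084). Their differences between co-exposure and KBrO3 alone at 4 hr were 0.31, 0.75 and 0.48, all called, and the changes of that difference with time were 0.62, 0.067 (adjusted p = 0.401, not called) and 0.38. The 2 probes of Cdkn2c gave −1.29 and −1.28 at 24 hr after co-exposure, but −0.21 and −0.015 (adjusted p = 0.762, not called) for co-exposure against KBrO3 alone at 4 hr and −0.30 and −0.63 for the change with time. For Cdkn1b, the brightest probe (chr6:134939519-134939578 in mm7, the build named in this set's file headers) lies apart from those designed to the RefSeq transcript (chr6:134935407-134935465 and chr6:134937910-134937969). All 3 were called lower at 4 hr after KBrO3 alone, by 2.14, 1.62 and 2.25, the last with the treated arrays not well above background, which bounds its fall at 1.09-fold or more. At 24 hr after KBrO3 alone only the brightest was called (−0.98, −0.19 and −0.18), so that the lasting fall of Cdkn1b there depends on the probe. After co-exposure the values at 24 hr were −1.37, −0.59 and −0.92, all called, the last again with treated arrays not well above background and bounded at 1.08-fold or more.

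For Cdk6, the brightest probe (chr5:3535293-3535352 in mm7) and the next, listed for the RefSeq transcript over chr5:3479226-3521510, rose by 0.88 and 1.75 at 24 hr after KBrO3 alone. After co-exposure the 2 parted, with 0.23 for the brightest and 0.93 for the next at 4 hr and 0.28 and 1.61 at 24 hr. The difference between co-exposure and KBrO3 alone at 4 hr was 0.15 by the first and 1.03 by the second (adjusted p = 6.21e-05), and the difference between co-exposure and KBrO3 alone at 24 hr, −0.60 by the first, was −0.14 (interval −0.44 to 0.16) by the second. With BPA alone at 4 hr both were called, at 1.09 and 1.83, and the differences from 4 to 24 hr were −0.73 (adjusted p = 0.0639) and −1.16 (adjusted p = 0.0356). The remaining probe of Cdk6 was above background nowhere in the first set and was not tested there.

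For the 3 genes with the widest range of group means in the first set, the genes with the most similar course over its 15 arrays were sought among 13519 protein-coding genes tested there. For Cdkn1c (range 2.33) they were Podn, Plxdc2 and Plppr3, with Pearson r of 0.996, 0.991 and 0.988. For Cdkn1b (range 2.20) they were Gypc, Rin2 and Hdac9, with r of 0.992, 0.992 and 0.990. For Ccnd1 (range 1.84) they were Cenpq, Pigg and Prss16, with r of 0.992, 0.991 and 0.991. The arrays fall into 5 groups, so these values describe the order of the groups and were not tested.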

How the data were processed

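RNA from 24 cultures was hybridized to Agilent 4x44 mouse arrays in 1 color (Cy3), in a first set of 15 arrays (5 groups) and a second of 9 (3 groups), with 3 arrays per group. The authors deposited scanner output of Agilent Feature Extraction, in which the processed signal is an intensity per spot, background-subtracted and detrended within the array and not normalized between arrays. The deposited series table was not used for any test: all 1080432 of its values equalled the processed signals of the scanner files exactly, so it is linear, not centred, and adds nothing. The log2 of the deposited processed signal minus its 75th percentile on each array was computed here. Arrays carry no read depth, and their number limits the precision.

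Control spots and outlier spots were left out, spots of a probe were averaged, and a probe was tested if well above background on all 3 arrays of at least 1 group of its set (27310 probes in the first set, 31810 in the second). Each set was fitted over all of its groups with limma 3.58.1 (lmFit, eBayes; R 4.3.3), with Benjamini-Hochberg adjustment over all tested probes. The fit was also run on simulated data with independent noise. There slide effects were simulated only for the fit with slide as a fixed block, so the main fit was not tried with them. The members and gene lists were chosen with earlier results of these data known. A gene stands for its brightest probe over all 24 arrays. Genes of the G1/S list are named if they are among the 2 with the largest change in their role and were called, or are Cdkn1a, Cdk2, Ccne1, Ccne2, Rb1 or E2f1; others named were chosen after their values were seen. The study's methods used an error-weighted analysis of variance, in whose place its thresholds were applied to the limma fit.

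Alternatives were quantile normalization, scaling to the median, normexp (offset 50), no filter or a stricter one, outlier spots kept, only the arrays compared, slide as a random or fixed block, a replicate block, the mean over probes, each array left out and, chosen after seeing the data, RefSeq probes for Cdk6 and Cdkn1b. Same-numbered arrays did not deviate together: the correlation of their residuals averaged −0.053 (first set, 30 pairs) and 0.003 (second set, 9 pairs). For pairs sharing a slide it averaged 0.045 (10 pairs) and −0.147 (4 pairs). The random-block fit estimated a correlation within slides of 0.634 (first set) and 0.115 (second set). The main fit treats arrays as independent. All 3 arrays of KBrO3 alone at 4 hr lay on 1 slide, and all 3 of co-exposure at 4 hr on another. Standard errors and adjusted p of comparisons with these groups may therefore be too small. With slide as a random block, 7 of 120 values lost their call.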

Additional observations from a re-analysis of the deposited data

Results flagged for a closer look

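For 9 of the 10 genes the difference between co-exposure and KBrO3 alone was itself different at 24 hr and at 4 hr (limma, Benjamini-Hochberg), and each is listed for that reason. The difference at 24 hr minus that at 4 hr was 1.23 for Cdkn1c, 0.62 for Ccnd2, 0.44 for Cdk4 and 0.19 for Ccnd3 on the log2 scale. It was −0.75 for Cdk6, −0.34 for Cdkn1b, −0.32 for Cdkn2b, −0.30 for Cdkn2c and −0.25 for Ccnd1. Cdkn1c was lower with BPA at 4 hr and higher at 24 hr. Cdk6 was higher at 4 hr and lower at 24 hr and Cdk4 the reverse. Their 4 hr differences were not called with normexp or slide as a random block, and that of Cdk6 was 0.008 with scaling to the median. The 24 hr difference of Cdk4 was not called with normexp either (0.23, adjusted p = 0.573). The 4 hr groups shared no slide, and slide as a random block ended the calls of Ccnd3 (0.21, adjusted p = 0.0788) and Cdkn1b (−0.21, adjusted p = 0.15). Quantile normalization brought Ccnd3 to 0.048 (adjusted p = 0.509), and scaling to the median brought Cdkn1b and Cdkn2b to −0.024 and −0.013. The latter also turned Ccnd1 to 0.058 and Cdkn2c to 0.015. With normexp only the calls of Cdkn1c and Cdk6 held. By the RefSeq probe of Cdk6 the differences were 1.03 at 4 hr (adjusted p = 6.21e-05) and −0.14 at 24 hr, and the change between them −1.17 (adjusted p = 0.000403). That change was 0.067 (adjusted p = 0.401) and 0.38 by the other probes of Ccnd2 and −0.63 by the other probe of Cdkn2c.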

How the results depend on the processing

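Of 3120 values of the 10 genes under alternatives, 2951 stayed on their side of the threshold with no called value changing direction, 150 lost their call, 13 gained one and 6 changed direction with a call in at least 1 of the 2 settings. Among the 2951, 44 values not called in either setting changed sign. The 6 were Cdk4 with co-exposure at 4 hr (−0.026 with quantile normalization) and, with scaling to the median, Ccnd3 with co-exposure at 24 hr (0.31, adjusted p = 0.00305), Cdkn2a and Cdkn2c from 4 to 24 hr of co-exposure (0.13 and 0.18) and the change with time of Ccnd1 and Cdkn2c (0.058 and 0.015). Median scaling moved the median of all probes by −0.14 to 0.46 between comparisons, and with normexp that median, −0.22 to 0.082 otherwise, was −0.52 to 0.042; the cause was not tested. The number of genes called with BPA alone at 4 hr fell from 3 to 1 with median scaling, with only the arrays compared or with a replicate block, and to 0 with normexp or slide as a fixed block. From 4 to 24 hr of BPA alone it fell from 1 to 0 with median scaling, normexp or fixed slide and became 2 with RefSeq probes. For co-exposure against KBrO3 alone, normexp lowered the number from 7 to 3 at 4 hr, from 9 to 5 at 24 hr and from 9 to 2 for the change between the times, and slide as a random block lowered it from 7 to 4 at 4 hr. The study's thresholds gave 4 genes at 4 hr and 6 at 24 hr after KBrO3 alone, 5 and 6 after co-exposure, 1 and 3 for co-exposure against KBrO3 alone, 5 and 7 from 4 to 24 hr of KBrO3 alone and of co-exposure, 2 for the change between the times and 0 for BPA alone at 4 hr and from 4 to 24 hr.

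Leaving out each array in turn gave 6 to 8 genes at 4 hr and 10 to 10 at 24 hr after KBrO3 alone, 8 to 9 and 9 to 9 after co-exposure, 5 to 7 and 9 to 9 for their difference at 4 and 24 hr, 9 to 10 for the change of that difference, 8 to 9 from 4 to 24 hr of KBrO3 alone and 9 to 9 of co-exposure. With BPA alone it gave 0 to 3 at 4 hr, 0 to 1 at 24 hr and 0 to 1 between them. The replicate block changed 3 of 120 calls, those of Ccnd2 after KBrO3 alone at 4 hr (adjusted p = 0.0579) and of Ccnd3 and Cdkn2b after BPA alone at 4 hr (0.0736 and 0.0719). The wider spread of the second set and the low signal of the dimmer Cdk6 and Cdkn1b probes limit what those arrays resolve.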
